A study of Mus musculus with 2 samples.

Results

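The genes of cholesterol and fatty acid synthesis were examined in mouse CD8+ T cells that were transduced either with *Eomes* or with an empty vector. The set was chosen by gene symbol and holds 34 genes of the 14732 symbols listed in at least 1 library. All 34 were listed in both libraries, and all 34 were expressed, meaning that either library gave them at least 1 RPKM, as were 9925 genes in all. RPKM is a read number scaled to transcript length and library depth, so that levels can be compared between genes. Both libraries came from CD8+ T cells of spleen and lymph nodes of 6-8 wk old C57BL/6 mice carrying the OT-I transgenic T cell receptor, which recognizes the OVA peptide SIINFEKL. The cells of both groups were activated for 24 h (2.5 ng/mL of peptide, 10 U/mL of IL-2), transduced with a retrovirus, and sorted 48 h later for human CD2, which the vector encodes as a marker. The control vector carried no further gene and the other carried *Eomes*, a T-box transcription factor, expressed from the same retroviral backbone. Sorted cells were plated at 40000 per well and received the peptide and IL-2 again at the same doses for 3 days before total RNA was extracted. A single culture of each group was sequenced, so no difference between the libraries has a replicate check, no test was made, and "higher" and "lower" compare the Eomes library with the control library only.

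Cholesterol is built from acetyl-CoA through mevalonate, farnesyl diphosphate, squalene and lanosterol. Transcription of the enzymes is driven by SREBP proteins, which SCAP escorts to the Golgi when sterols are scarce and INSIG proteins hold back in the endoplasmic reticulum when sterols are plentiful. Fatty acids are built from the same acetyl-CoA, and both pathways are known to be switched on when T cells are activated, since dividing cells need new membrane.

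The number of reads behind the values was estimated from the smallest steps of the deposited values, as 18975300 in control and 18716100 in the Eomes library. The 95% intervals were 18532200 to 19700600 and 18248200 to 19364800. They reflect the spread over the genes used and not how those genes were chosen. The median listed RPKM was 5.71 in control and 5.84 in the Eomes library. *Eomes* itself, on mm10 chromosome 9 from 118478212 to 118486132, measured 2.47 RPKM in control and 129.6 RPKM in the Eomes library (log2 ratio 5.71), as the labels say. The 5 markers of CD8+ T cells (*Cd3d*, *Cd3e*, *Cd3g*, *Cd8a* and *Cd8b1*) were all listed at 1 or more, with a summed RPKM of 978.1 in control and 720.0 in the Eomes library. The 23 markers of CD4+ T cells, B cells, myeloid, NK and erythroid cells, hepatocytes and adipocytes summed to 3.92 in control and 8.50 in the Eomes library. Of these, 12 were listed at all and 3 reached an RPKM of 1, namely *Klrb1c* (0.31 and 5.74), *Cd14* (1.39 and 1.12) and *Adipoq* (1.0 and 0.71), and the hepatocyte markers were listed in neither library. In bulk RNA, fewer cells of a type and less RNA per cell cannot be told apart, and the part of the marker genes in the results was not tested.

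Promoter sequences were read for the genes from RefSeq (GRCm38.p6), as windows of 250 bases before to 50 bases after each start, and 27 of the 34 genes had at least 1 window. Those without one in the table were *Fdps*, *Fdft1*, *Sqle*, *Stard4*, *Scd1*, *Scd2* and *Fads1*. Promoters are shown because they span the set, namely *Hmgcs1*, an early enzyme of the mevalonate pathway, *Fasn*, the fatty acid synthase, and *Elovl6*, the elongase whose level differed by more than 1.5-fold. The sequences run 5′ to 3′ on the strand of the gene, and capitals mark CCAAT or its reverse complement ATTGG and, in *Hmgcs1*, the letters TCACNCCAC of a sterol regulatory element. The windows are chr13:119690101-119690350 on the plus strand for *Hmgcs1*, chr11:120824548-120824797 on the minus strand for *Fasn*, and chr3:129532136-129532354 on the plus strand for *Elovl6*, from which 31 bases inside the annotated gene were left out.
Hmgcs1: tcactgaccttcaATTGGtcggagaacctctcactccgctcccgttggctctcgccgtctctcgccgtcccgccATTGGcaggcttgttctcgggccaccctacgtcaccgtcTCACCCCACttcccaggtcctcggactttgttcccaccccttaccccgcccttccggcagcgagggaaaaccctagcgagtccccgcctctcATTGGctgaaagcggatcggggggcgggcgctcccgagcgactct
Fasn: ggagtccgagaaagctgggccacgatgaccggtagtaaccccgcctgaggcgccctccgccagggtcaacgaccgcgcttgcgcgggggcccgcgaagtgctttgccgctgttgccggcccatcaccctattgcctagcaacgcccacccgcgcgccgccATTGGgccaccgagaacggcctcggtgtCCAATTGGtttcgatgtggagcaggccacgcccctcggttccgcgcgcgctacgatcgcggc
Elovl6: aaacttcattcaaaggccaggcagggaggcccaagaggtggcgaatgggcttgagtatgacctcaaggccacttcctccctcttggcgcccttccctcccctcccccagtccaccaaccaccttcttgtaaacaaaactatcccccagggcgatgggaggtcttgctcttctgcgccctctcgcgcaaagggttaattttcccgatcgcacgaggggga
The *Hmgcs1* sequence holds 1 match to the sterol element 137 bases before the start and 3 to CCAAT, the *Fasn* sequence holds 3 matches to CCAAT, and the *Elovl6* sequence holds none of the letters searched.

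CCAAT, the letters bound by NF-Y, was searched on both strands. It was present in 22 of the 27 genes (81.5%), against 43.5% of the 7938 expressed genes with a window and 41.1% of all 27025. It was in 9 of 9 genes between squalene and cholesterol, 6 of 7 genes of the mevalonate pathway, 3 of 4 genes of sterol sensing and transport, 2 of 3 genes of fatty acid synthesis and 2 of 4 genes of desaturation and elongation. TCACNCCAC was found in *Hmgcs1* alone, 1 of 27 genes (3.70%), against 1.42% of expressed genes and 1.44% of all genes. The palindrome CACGTG was in 6 of 27 genes (22.2%), against 12.4% of expressed genes and 8.09% of all genes. Those 6 genes were *Insig1*, *Scap*, *Hsd17b7*, *Sc5d*, *Dhcr7* and *Elovl5*. TCACACC, a core of the letters that T-box proteins bind, was in 0 of 27 genes, 4.06% of expressed genes and 3.98% of all windows, and it shares letters with TCACNCCAC. A match is a description of the sequence and not a binding site. The lack of a match in these short windows does not show that a gene lacks a site, since most Eomes peaks of the paper fell into introns or intergenic regions.

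As a set, the 34 genes stood at nearly the same level in both libraries. Their summed RPKM was 1150.8 in control and 1118.0 in the Eomes library, 0.205% and 0.203% of all summed RPKM, respectively. The level was higher in the Eomes library for 14 genes and lower for 20, and the median log2 ratio was -0.07, against 0.00 for all expressed genes, of which 50.5% were lower. More than 1.5-fold apart were 2 of 34 genes (5.88%), against 7.60% of all expressed genes. The 1 gene higher compares with 2.44% of expressed genes and the 1 gene lower with 5.16%. Within 1.25-fold were 29 of the 34 genes (85.3%), against 77.3% of expressed genes, and 32 lay between the 5th and 95th percentiles of all expressed genes (log2 ratio -0.60 to 0.44). The plot of RPKM in each library shows levels from 0.96 to 111.9 RPKM, with the open and filled points of most genes close together.

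**Figure D1:**
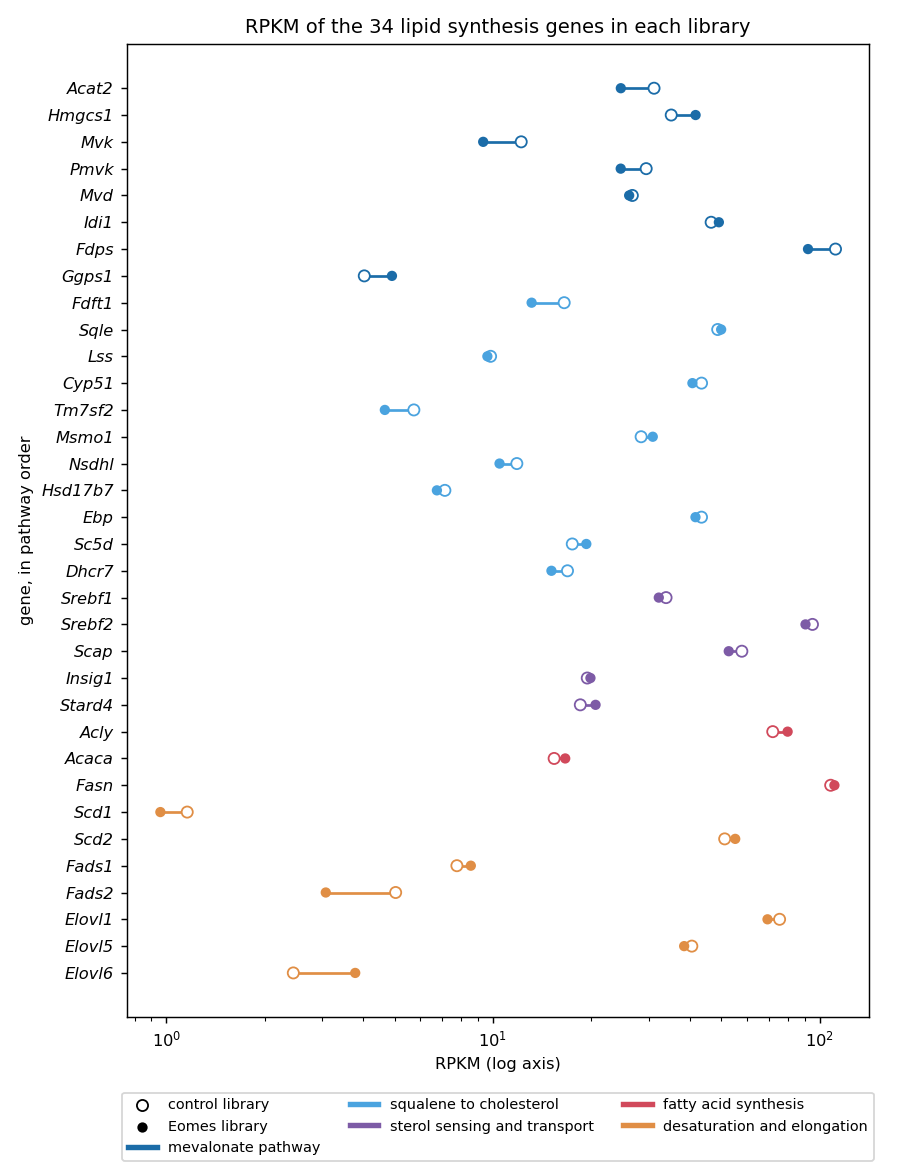
RPKM on a log axis of the 34 lipid synthesis genes in pathway order, with open points for the control library, filled points for the Eomes library, a line joining both, and colours for the role of the gene. *Fads2* (5.04 and 3.08) and *Elovl6* (2.45 and 3.79) have the longest lines, and *Scd1* (1.16 and 0.96) is the gene with the lowest level.

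Approximate reads were 87 to 20881 per gene and library, with a median of 1515 in control and 1538 in the Eomes library. The 95% counting interval of the log2 ratio, which is exact binomial and covers counting error only, excluded 0 for 23 of the 34 genes, against 53.2% of the 9835 expressed genes with a length. Of these, 12 were lower (26.4% of expressed genes) and 11 higher (26.8%). The reads were approximated with the longest transcript of each gene. With the median transcript length, which gives fewer reads, 12 genes had an interval without 0, against 36.5% of expressed genes, and it then included 0 for *Idi1*, *Ggps1*, *Cyp51*, *Tm7sf2*, *Msmo1*, *Sc5d*, *Dhcr7*, *Scap*, *Stard4*, *Acaca* and *Fasn*. No interval of either kind lay wholly beyond 1.5-fold. With the longest transcript, the intervals of *Fads2*, *Elovl6* and *Scd1* spanned it. With the median length, those of *Mvk*, *Tm7sf2* and *Ggps1* spanned it as well. The interval of *Fads2* was then -1.23 to -0.18 and that of *Elovl6* 0.26 to 0.99. Such an interval compares these libraries and not the conditions, because the spread between cultures was not measured.

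**Figure D2:**
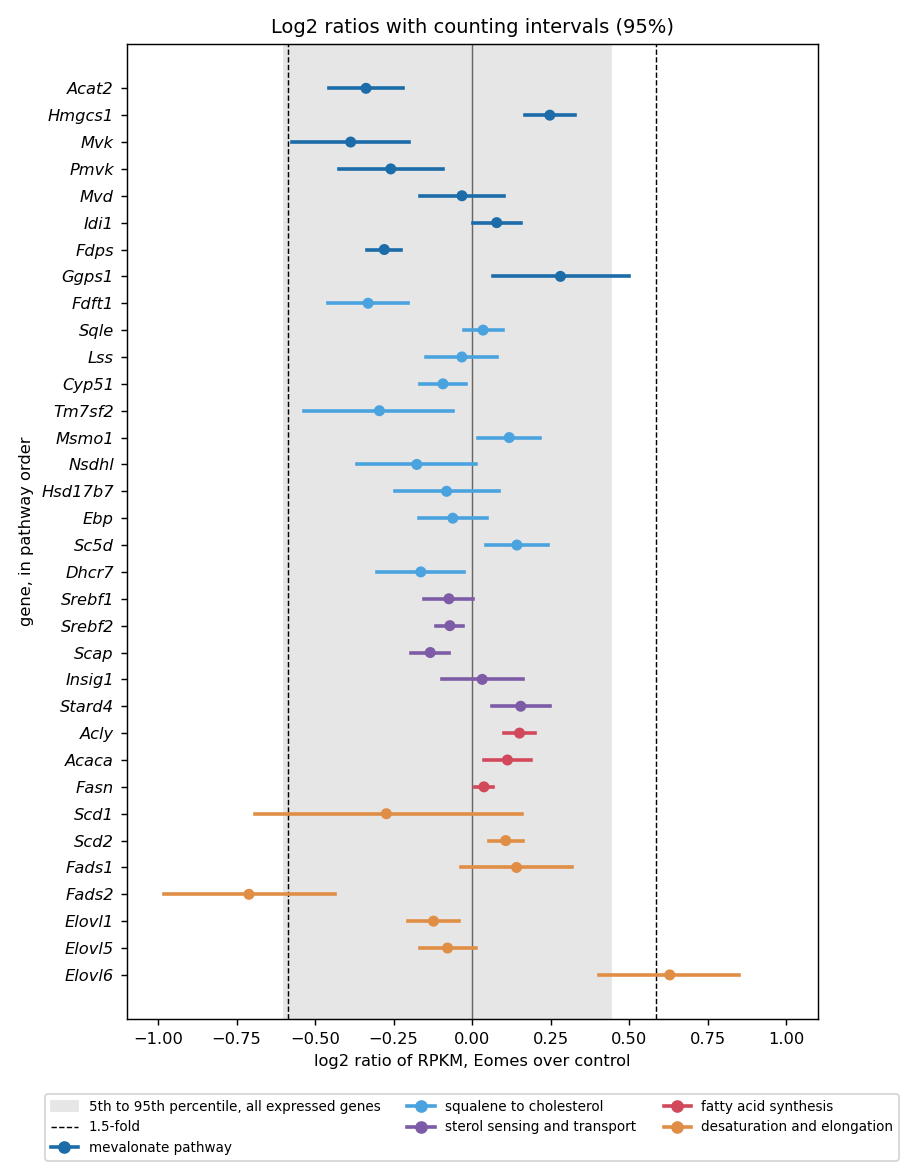
Log2 ratio of RPKM, Eomes library over control, for each of the 34 genes, with bars for the 95% counting interval, dashed lines at 1.5-fold and a grey band from the 5th to the 95th percentile of the 9925 expressed genes. Only *Fads2* (-0.71) and *Elovl6* (0.63) lie outside the dashed lines, and 23 bars do not reach 0, beside 12 when the median transcript length is used.

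The mevalonate pathway had 3 genes higher and 5 lower among 8, with a median log2 ratio of -0.15, none of them by more than 1.5-fold. Its opposite ends of the range were *Mvk* and *Ggps1*. *Mvk*, the kinase that phosphorylates mevalonate, measured 12.2 RPKM in control and 9.34 RPKM in the Eomes library, a log2 ratio of -0.39 (counting interval -0.57 to -0.20), the lowest of the sterol enzymes. *Pmvk*, the kinase that follows it, had 29.5 and 24.6 (log2 ratio -0.26). *Mvd*, the decarboxylase that makes isopentenyl diphosphate, had 26.7 and 26.1 (-0.03). These consecutive enzymes were thus all lower, by unequal amounts, and the counting interval of *Mvd* (-0.17 to 0.10) included 0.

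At the start of the pathway, *Acat2*, the thiolase that joins a pair of acetyl-CoA molecules, measured 31.1 RPKM in control and 24.6 RPKM in the Eomes library (log2 ratio -0.34). Of its stretches of 50 bases, 45.9% also occur in *Acat3*, so reads could be split between the copies. *Hmgcs1*, on mm10 chromosome 13 from 119690379 to 119708260, makes HMG-CoA and stood at 35.2 in control and 41.7 in the Eomes library (log2 ratio 0.25, counting interval 0.17 to 0.33). *Acat2* and *Hmgcs1*, neighbours in the pathway, therefore differed between the libraries in opposite directions. After the centring on GC content described below, *Acat2* stood at -0.33 and *Hmgcs1* at only 0.10.

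At its end, *Idi1*, which isomerizes isopentenyl diphosphate, measured 46.6 RPKM in control and 49.2 RPKM in the Eomes library (log2 ratio 0.08). *Fdps*, the farnesyl diphosphate synthase and the gene with the highest control level of the set, had 111.9 and 92.2 (log2 ratio -0.28, counting interval -0.33 to -0.23). *Ggps1*, which makes geranylgeranyl diphosphate for protein prenylation, had 4.04 and 4.91 (log2 ratio 0.28). Both synthases use isopentenyl diphosphate, and the level was lower for the abundant one and higher for the scarce one. With the median transcript length, the counting interval of *Ggps1* (-0.23 to 0.79) included 0. After the centring on GC content described below, *Fdps* stood at -0.25 and *Ggps1* at only 0.07. Of the 50-base stretches of *Idi1* and *Fdps*, 21.3% and 11.7%, respectively, are shared with other genes.

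The route from the making of squalene to cholesterol held 11 genes, of which 3 were higher, 8 lower and none beyond 1.5-fold (median log2 ratio -0.08). *Fdft1*, the squalene synthase, measured 16.5 RPKM in control and 13.1 RPKM in the Eomes library, a log2 ratio of -0.33 and the lowest of these genes, and 10.9% of its 50-base stretches are shared with the gene model *Gm6781*. *Sqle*, the squalene epoxidase, had 48.77 and 49.97 (log2 ratio 0.04). *Lss*, which closes the rings to lanosterol, had 9.84 and 9.62 (-0.03). The counting intervals of *Sqle* and *Lss* included 0, and that of *Fdft1* (-0.46 to -0.21) did not.

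Of the enzymes that remove the methyl groups of lanosterol and reduce its ring, 4 of 5 were lower and 1 higher, with log2 ratios from -0.30 to 0.12. *Cyp51*, the lanosterol demethylase, measured 43.5 RPKM in control and 40.8 RPKM in the Eomes library (log2 ratio -0.09). *Tm7sf2*, a sterol reductase and the gene with the lowest level of these 11, had 5.73 and 4.67 (-0.30). *Msmo1*, the methyl sterol oxidase, had 28.4 and 30.9 (0.12). *Msmo1*, *Sqle* and *Sc5d* were the only genes between squalene and cholesterol with a higher value in the Eomes library. *Nsdhl*, which follows *Msmo1* in the removal of methyl groups, had 11.8 and 10.5 (-0.18). *Hsd17b7*, the ketoreductase of the same step, had 7.13 and 6.74 (-0.08).

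The last steps also showed small differences of either sign. *Ebp*, the sterol isomerase, measured 43.5 RPKM in control and 41.7 RPKM in the Eomes library (log2 ratio -0.06). *Sc5d*, the sterol desaturase, had 17.5 and 19.3 (0.14). *Dhcr7*, which reduces the direct precursor to cholesterol, had 16.9 and 15.1 (-0.16). Over the whole route, 13 of the 19 sterol enzymes were lower, the median log2 ratio was -0.08, and their summed RPKM was 546.9 in control and 515.1 in the Eomes library (log2 ratio of sums -0.09).

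The genes that sense and carry sterols were within 1.25-fold in all 5 cases. *Srebf2*, which encodes the SREBP that drives cholesterol synthesis, measured 95.1 RPKM in control and 90.6 RPKM in the Eomes library (log2 ratio -0.07). *Srebf1*, whose products drive fatty acid synthesis, had 33.9 and 32.2 (-0.07). *Srebf2* was thus 2.81 times as abundant as *Srebf1* per length in both libraries. *Scap*, the escort of SREBP, had 57.8 and 52.7 (-0.13, counting interval -0.19 to -0.07, or -0.32 to 0.06 with the median transcript length).

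*Insig1*, the retention protein of the endoplasmic reticulum and a known SREBP target, measured 19.5 RPKM in control and 19.9 RPKM in the Eomes library (log2 ratio 0.03, counting interval -0.10 to 0.16). *Stard4*, a carrier of cholesterol between membranes, had 18.5 and 20.6 (0.15). The median log2 ratio of these 5 genes was -0.07, and it was 0.03 after the centring on GC content described below, so its sign depends on that centring.

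The 3 genes of fatty acid synthesis were all higher in the Eomes library, by small amounts. *Acly*, which splits citrate to acetyl-CoA, measured 71.9 RPKM in control and 79.8 RPKM in the Eomes library (log2 ratio 0.15, counting interval 0.10 to 0.20). *Acaca*, the carboxylase that makes malonyl-CoA, had 15.4 and 16.7 (0.11), and 52.6% of its 50-base stretches also occur in *Gm5182*. *Fasn*, which builds palmitate, had 108.1 and 111.0 (0.04, counting interval 0.01 to 0.07, or -0.06 to 0.13 with the median transcript length). *Fasn* was the gene of the set with the highest level in the Eomes library.

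Desaturation and elongation was the group with the widest range of log2 ratios, from -0.71 to 0.63, with 3 of 7 genes higher, 4 lower and a median of -0.08. *Fads2*, the desaturase that begins the synthesis of long polyunsaturated fatty acids, lies on mm10 chromosome 19 from 10062765 to 10101746. It measured 5.04 RPKM in control and 3.08 RPKM in the Eomes library, 1.64-fold lower (log2 ratio -0.71, counting interval -0.98 to -0.44, from about 301 and 182 reads). *Fads1*, which acts after *Fads2* and lies near it on chromosome 19 from 10182888 to 10196877, had 7.76 and 8.56 (log2 ratio 0.14). The level of *Fads1* was 1.54 times that of *Fads2* in control and 2.78 times in the Eomes library. In descending order of log2 ratio, *Fads2* ranked 9562 among 9925 expressed genes. With a pseudocount of 1 its log2 ratio was -0.57, under 1.5-fold.

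*Elovl6*, the elongase that extends palmitate to stearate, lies on mm10 chromosome 3 from 129532355 to 129638495. It measured 2.45 RPKM in control and 3.79 RPKM in the Eomes library, 1.55-fold higher (log2 ratio 0.63, counting interval 0.41 to 0.85, from about 277 and 422 reads), and it ranked 205 of 9925. Relative to its GC bin it stood at 0.52 and with a pseudocount of 1 at 0.47, both under 1.5-fold, and a minimum RPKM of 5 leaves it out. *Elovl1*, which extends saturated and monounsaturated very long chains, had 75.4 and 69.3 (log2 ratio -0.12). *Elovl5*, which extends polyunsaturated chains, had 40.6 and 38.5 (-0.08). The abundant elongases were thus slightly lower and the scarce one higher, though the counting interval of *Elovl5* (-0.17 to 0.01) included 0. The ratio of *Elovl1* to *Elovl6* levels was 30.8 in control and 18.3 in the Eomes library.

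The stearoyl-CoA desaturases, which make oleate, were represented mainly by *Scd2*. It measured 51.2 RPKM in control and 55.2 RPKM in the Eomes library (log2 ratio 0.11). *Scd1* had 1.16 and 0.96 (log2 ratio -0.27), from about 106 and 87 reads, and its counting interval of -0.69 to 0.16 included both an equal and a 1.5-fold lower level, which could not be told apart at this depth. The level of *Scd2* was 44.2 times that of *Scd1* in control and 57.5 times in the Eomes library. Of the stretches of *Scd2* compared with other genes, 4.01% were shared, with *Scd1* more than with any other gene. For *Scd1* the share was 4.66%, mostly with *Scd3*. *Scd2* had about 5303 reads in control and 5634 in the Eomes library. The level of *Scd1* and this ratio could thus depend on how shared reads were split, which was not tested.

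Together, the 10 enzymes of fatty acid synthesis, desaturation and elongation had 6 genes higher and 4 lower, with a median log2 ratio of 0.07, beside -0.08 for the 19 sterol enzymes. The difference between these medians was not tested. In the plot of log2 ratio against mean RPKM, both genes beyond 1.5-fold lie at a mean RPKM under 5, where the cloud of all genes is wide. Of the abundant members, *Fasn* lies near 0 (0.04) and *Fdps* lower (-0.28).

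**Figure D3:**
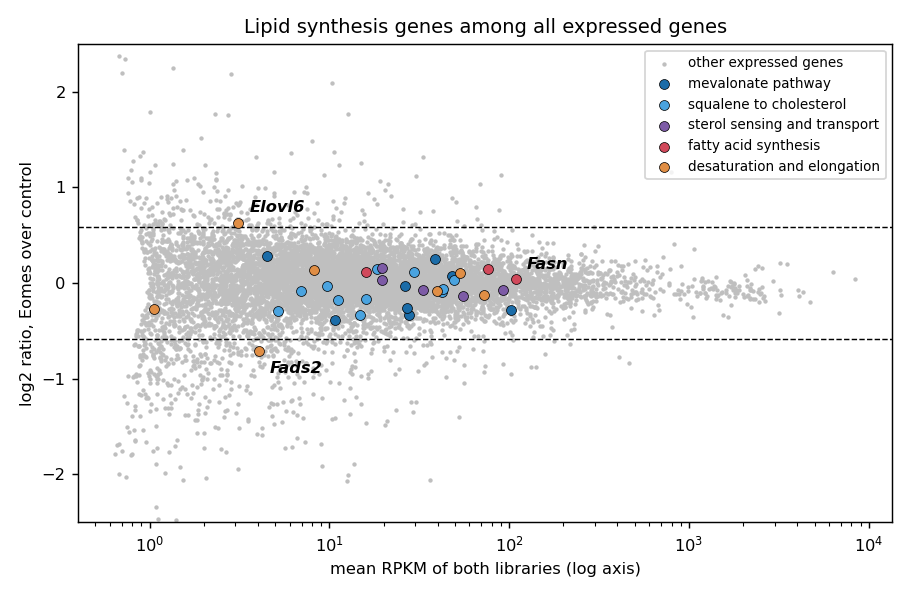
Log2 ratio, Eomes library over control, against the mean RPKM of both libraries on a log axis, for the 34 lipid synthesis genes in the colours of their roles and for the other expressed genes in grey, with dashed lines at 1.5-fold. A further 22 expressed genes have log2 ratios beyond 2.5 in either direction and are not drawn.

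Over all genes, log2 ratios went with transcript GC content. Over 20 bins of expressed genes, the median log2 ratio was 0.26 in the bin of lowest GC content and -0.09 in the bin of highest. The 34 genes had GC contents from 40.1% to 59.1% with a median of 49.6%, and all expressed genes had a median of 49.7%. After each log2 ratio was set relative to the median of its bin, the median of the 34 genes was -0.02, with 15 higher and 19 lower. *Fads2* stood at -0.63, still beyond 1.5-fold, and *Elovl6* at 0.52, no longer beyond it. The sign of the log2 ratio was opposite for *Mvd* (0.07), *Idi1* (-0.11), *Sc5d* (-0.01), *Srebf1* (0.03) and *Srebf2* (0.03). Relative to their bins, 14 of 19 sterol enzymes were lower (median -0.11), the 3 genes of fatty acid synthesis were all higher (median 0.14), and the 10 fatty acid enzymes had a median of 0.12.

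**Figure D4:**
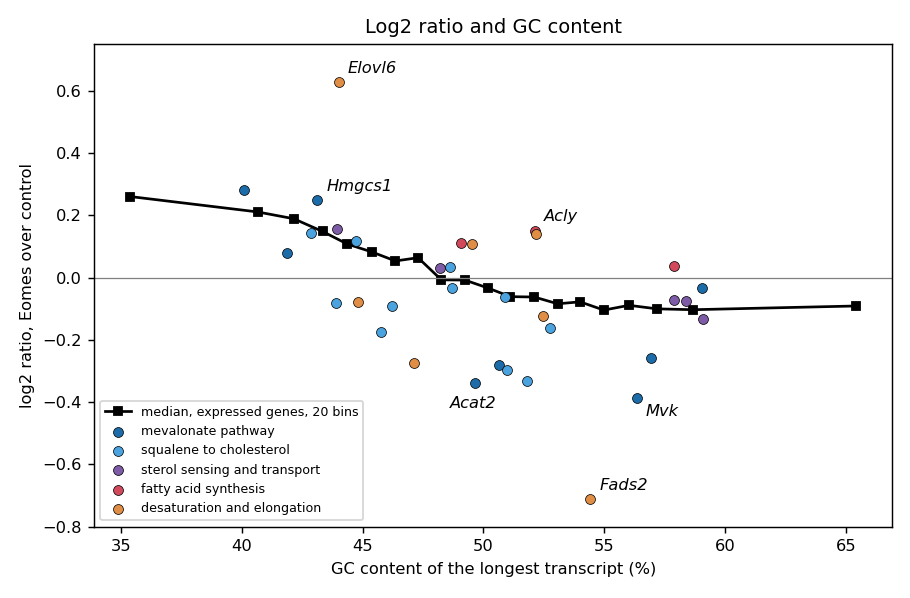
Log2 ratio, Eomes library over control, against GC content of the longest transcript in percent, with the 34 lipid synthesis genes as coloured points and the median of all expressed genes in 20 bins as black squares. The medians go from 0.26 at low to -0.09 at high GC content, and *Hmgcs1* (0.25) lies near the line while *Elovl6* (0.63) and *Fads2* (-0.71) lie far from it.

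Further genes of lipid metabolism were read from 5 lists with 86 genes, of which 64 were expressed, 23 higher and 41 lower, with 3 beyond 1.5-fold (4.69%, against 7.60% of all expressed genes) and a median log2 ratio of -0.09. The 3 genes all belonged to the list of other lipogenic genes, with 18 of 28 expressed, 1 higher and 2 lower beyond 1.5-fold (all expressed genes 2.44% and 5.16%), and a median of 0.01. Each of the 3 counted as expressed only through the library in which it was higher, a filter that favours a difference, so the count is no result about the list. *Me1*, the malic enzyme that supplies NADPH, measured 0.88 RPKM in control and 1.62 RPKM in the Eomes library (log2 ratio 0.88). *Fads6*, a gene of the fatty acid desaturase family, had 1.30 and 0.78 (-0.74). *Acsl6*, an acyl-CoA synthetase, had 2.46 and 0.59 (-2.06). All 3 were under 2.5 RPKM in both libraries.

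Of the remaining lists, no expressed gene passed 1.5-fold. The list of SREBP processing and other sterol genes had 7 of 9 expressed (2 higher, 5 lower) and a median log2 ratio of -0.12. The list of LXR and sterol efflux genes had 7 of 15 expressed (2 higher, 5 lower) and a median of -0.12. *Abca1* and *Abcg1*, the sterol exporters that LXR is known to induce, were under an RPKM of 1 in both libraries. The 14 genes of isoprenoid branches, among them the prenyl transferases, were all expressed (6 higher, 8 lower) with a median of -0.03, which was 0.00 when both libraries were scaled to the same summed RPKM. The list of fatty acid oxidation, which burns what the other enzymes build, had 18 of 20 expressed, 15 of them lower and 3 higher, and a median of -0.15. Relative to their GC bins, 16 of these 18 were lower and the median was -0.13.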

How the data were processed

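Total RNA of 1 control and 1 Eomes culture was sequenced. The authors deposited 1 FPKM value per gene symbol and library, called RPKM in their methods and here, with 2 decimals; the submitters' processing notes name HISAT2, Bowtie2 and RSEM, without versions, and the mm10 build. No normalization between libraries is given in the sources used here.

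Symbols turned into dates (20 in control, 19 in the Eomes library) were left out, and values not listed were set to 0.01. Python 3.11.15 with pandas 2.3.3, numpy 2.4.6 and scipy 1.17.1 gave log2 ratios, and matplotlib 3.10.9 the plots. A gene was called past 1.5-fold above, not at, that ratio; 7 expressed genes stood exactly at it. Length, GC content, position and shared 50-base stretches came from the longest transcript in GENCODE vM21 (99.1% of expressed genes had one).

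Depth was read from genes with 1 transcript of 300 to 1500 bases and an RPKM of 0.04 to 0.5, taking RPKM times length of 40 to 65 as 1 read (50 of 143 genes in control, 52 of 147 in the Eomes library). This gives approximate reads only, since RSEM splits reads between genes, and PCR copies are not independent molecules. Intervals are Clopper-Pearson.

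All 34 genes are named, along with *Eomes*, listed genes past 1.5-fold and markers. The genes and lists were chosen with earlier results of these data known. The depth window, motif letters, printed promoters, ratios between genes and the naming of *Abca1* and *Abcg1* were chosen after values were seen. Calculations were tested on simulated data. Alternatives were pseudocounts of 0.1 or 1, no minimum or a minimum RPKM of 5, 2-fold as threshold, centring on 20 GC bins, scaling to TPM, to the median or by trimmed means of log ratios, and median transcript length.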

Additional observations from a re-analysis of the deposited data

How the results depend on the processing

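No paired analysis was possible because each condition has 1 library, and no library could be left out. The number of the 34 genes beyond 1.5-fold was 2 as reported and 0 with a pseudocount of 1. It was 1 with a minimum RPKM of 5 (which leaves 31 genes), against 4.10% of all genes at that minimum. After GC centring it was 1, against 6.85% of the expressed genes with a GC content. At a 2-fold threshold it was 0, for which no share of all genes was calculated. With a pseudocount of 1, *Fads2* stood at -0.57 and *Elovl6* at 0.47, and 4.05% of all expressed genes passed. The other lipogenic genes beyond 1.5-fold, 3 as reported, were 1 with a pseudocount of 1, 10 without a minimum RPKM, 0 with a minimum of 5 and 1 at 2-fold. Without a minimum RPKM, 3 genes of the LXR and efflux list and 1 of the fatty acid oxidation list passed, beside 0 with it, and so did 23.3% of all genes. With the median transcript length, which lowers the approximate reads, 12 counting intervals excluded 0, beside 23. Of 269 values of single genes under the alternatives, 257 stayed within the counting interval, and 12 left it (11 of them under GC centring). The settings of the minimum RPKM only choose genes and cannot move a value. Their values were thus bound to stay, and the 257 is no measure of stability. *Fads2* and *Elovl6*, the genes beyond 1.5-fold, kept their sign, and 5 genes turned sign under GC centring (*Mvd*, *Idi1*, *Sc5d*, *Srebf1* and *Srebf2*). Scaling by a trimmed mean moved all log2 ratios by 0.01 and scaling to TPM by 0.03, and no gene of the 34 turned sign under either. The depth limits *Scd1* and *Fads2* most, whose counting intervals were the widest of the 34, with 87 to 301 approximate reads per library.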
